A study of Homo sapiens with 10 samples.

Results

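Transcription factors that direct monocyte and dendritic cell development were examined in MV4-11 cells with and without an IRF8 knockout. The factors were taken by gene symbol and are SPI1, SPIB, KLF4, BATF3, ID2, TCF4, ZEB2, EGR2 and IKZF1, which are 9 of the 19590 genes in the RNA-Seq table. MV4-11 is an established human acute myeloid leukaemia (AML) cell line of monocytic type that carries an internal tandem duplication in the receptor FLT3. The Control group held 4 RNA libraries of MV4-11 cells infected with a control CRISPR vector, and the IRF8 KO group held 4 RNA libraries of MV4-11 cells in which the IRF8 gene was targeted with CRISPR/Cas9. Both groups were grown in the same medium and had been infected with a lentiviral vector that carries puromycin resistance. By the methods of the study, the IRF8 KO cells were clones obtained by limited dilution, while no cloning is stated for the Control cells, so that differences of a clone and of IRF8 cannot be told apart. The labels give a replicate number but neither the clone nor the culture of each library, and p-values therefore measure the spread between these libraries, which may be technical.

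IRF8 is a transcription factor of monocytes and dendritic cells that binds DNA weakly by itself and mostly acts with a partner. The ETS factors PU.1 (encoded by SPI1) and SpiB (SPIB) are such partners at sites where an ETS and an IRF motif lie side by side, and BATF3 is a partner at sites with an AP-1 motif. KLF4 and EGR2 are zinc finger factors known from monocyte and macrophage differentiation, and BATF3 and ID2 are known from the conventional dendritic cells of type 1 (cDC1). TCF4, which encodes the E protein E2-2, and SPIB are known from plasmacytoid dendritic cells. ID2 encodes an inhibitor that binds E proteins and keeps them off DNA. ZEB2 encodes a transcriptional repressor known from monocytes and from plasmacytoid and type 2 conventional dendritic cells (cDC2). IKZF1 encodes Ikaros, a regulator of lymphoid and dendritic cell development.

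Of the 9 factors, SPIB was the one called differentially expressed, with 29.5% of the Control mean in the IRF8 KO libraries. KLF4 was 2.37-fold higher by the group means and its groups did not overlap, but its adjusted p of 0.061 did not pass the threshold in the main comparison and did in some of the alternatives. The other 7 factors overlapped between the groups and were not called.

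The promoters of SPIB and KLF4, the 2 factors whose groups did not overlap, are shown to describe which partner motifs lie directly in front of their transcription starts. The sequences are those of RefSeq (GRCh38.p14), the 250 bases in front of the start, read 5′ to 3′ on the strand of the gene. SPIB lies on the plus strand (chr19:50418688-50418937) and KLF4 on the minus strand (chr9:107489770-107490019). Capitals mark the motifs that were found.
SPIB: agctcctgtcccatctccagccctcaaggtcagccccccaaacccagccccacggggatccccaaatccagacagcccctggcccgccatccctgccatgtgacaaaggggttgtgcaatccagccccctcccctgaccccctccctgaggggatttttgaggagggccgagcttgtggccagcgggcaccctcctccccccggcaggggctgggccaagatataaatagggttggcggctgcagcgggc
KLF4: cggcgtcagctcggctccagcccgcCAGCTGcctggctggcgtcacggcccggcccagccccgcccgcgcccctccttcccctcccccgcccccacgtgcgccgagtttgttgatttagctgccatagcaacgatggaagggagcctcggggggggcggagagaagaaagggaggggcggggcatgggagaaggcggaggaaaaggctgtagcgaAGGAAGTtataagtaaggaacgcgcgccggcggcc
In the KLF4 sequence, the capitals are CAGCTG, the E box bound by E proteins, 225 bases before the start, and AGGAAGT, a core sequence of PU.1 sites, 35 bases before the start. The motifs searched on both strands were GGAANNGAAA, GAAANNGAAA and GAAANNGGAA (ETS-IRF composite element, IRF repeat and IRF-ETS composite sequence), AGGAAGT (PU.1 core), TGANTCA (AP-1), CACCTG (ZEB box), CAGCTG (E box) and CCACACCC (KLF CACCC box). None of these letters were found in the SPIB sequence. No match of one motif overlapped a match of another.

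RefSeq sequences were found for 7 of the 9 factors, with 20 promoter windows in all because some genes have several starts. AGGAAGT was also present in a window of IKZF1, 55 bases before the start. The E box CAGCTG was found in ID2 (205 bases before the start), IKZF1 (239) and EGR2 (50) as well as in KLF4, and TGANTCA in a window of TCF4 (133). The IRF repeat GAAANNGAAA was present in ZEB2, 85 bases before the start, and in windows of TCF4. Over all 35116 promoter windows of the same length, AGGAAGT was present in 7.01%, CAGCTG in 14%, CACCTG in 17.5%, TGANTCA in 6.57%, CCACACCC in 2.97%, GAAANNGAAA in 3.02%, GGAANNGAAA in 2.41% and GAAANNGGAA in 2.37%. These matches describe the sequence and were not tested for binding, since the IRF8 ChIP-Seq was not analysed here.

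Expression is given as normalized counts, which are reads per gene divided by one size factor per library. Reads on genes ranged from 48762519 to 65519047 in the Control libraries and from 39560072 to 54048461 in those of IRF8 KO. Fold changes were computed with limma on log2(normalized count + 1), a scale on which the change of weakly expressed genes is understated. Genes averaging at least 10 normalized counts over the 8 libraries were tested, which were 13110. All 9 factors passed this filter. A gene was called at an adjusted p below 0.05. In this comparison, 18.2% of the tested genes were called, 8.65% as higher and 9.56% as lower in IRF8 KO, and for 25.3% the groups did not overlap. The study itself used an unadjusted p below 0.01 together with a 2-fold difference, and by these limits 10.9% were called. Exact permutation tests are two-sided and cannot give a p below 0.029 with 4 libraries against 4.

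The targeted gene was lower but not absent in the IRF8 KO libraries. IRF8 had 36891, 15192, 43015.5 and 22535 normalized counts in Control 1 to 4, and 6377, 2401, 12903 and 7819.7 in IRF8 KO 1 to 4. The groups did not overlap, although the highest IRF8 KO value lay close to the lowest Control value. The IRF8 KO mean was 25.1% of the Control mean (log2 fold change -2.11, limma adjusted p = 0.022, and 6.3e-04 with the replicate number as a block). This call was lost without Control 1 (adjusted p = 0.059), Control 3 (0.058) or IRF8 KO 1 (0.053). An edit of the gene need not lower its mRNA, and protein was not measured in these files. The study reported that IRF8 protein was absent from its knockout clones by Western blot, and that IRF8 was no longer found at its target genes by ChIP-qPCR.

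**Figure D1:**
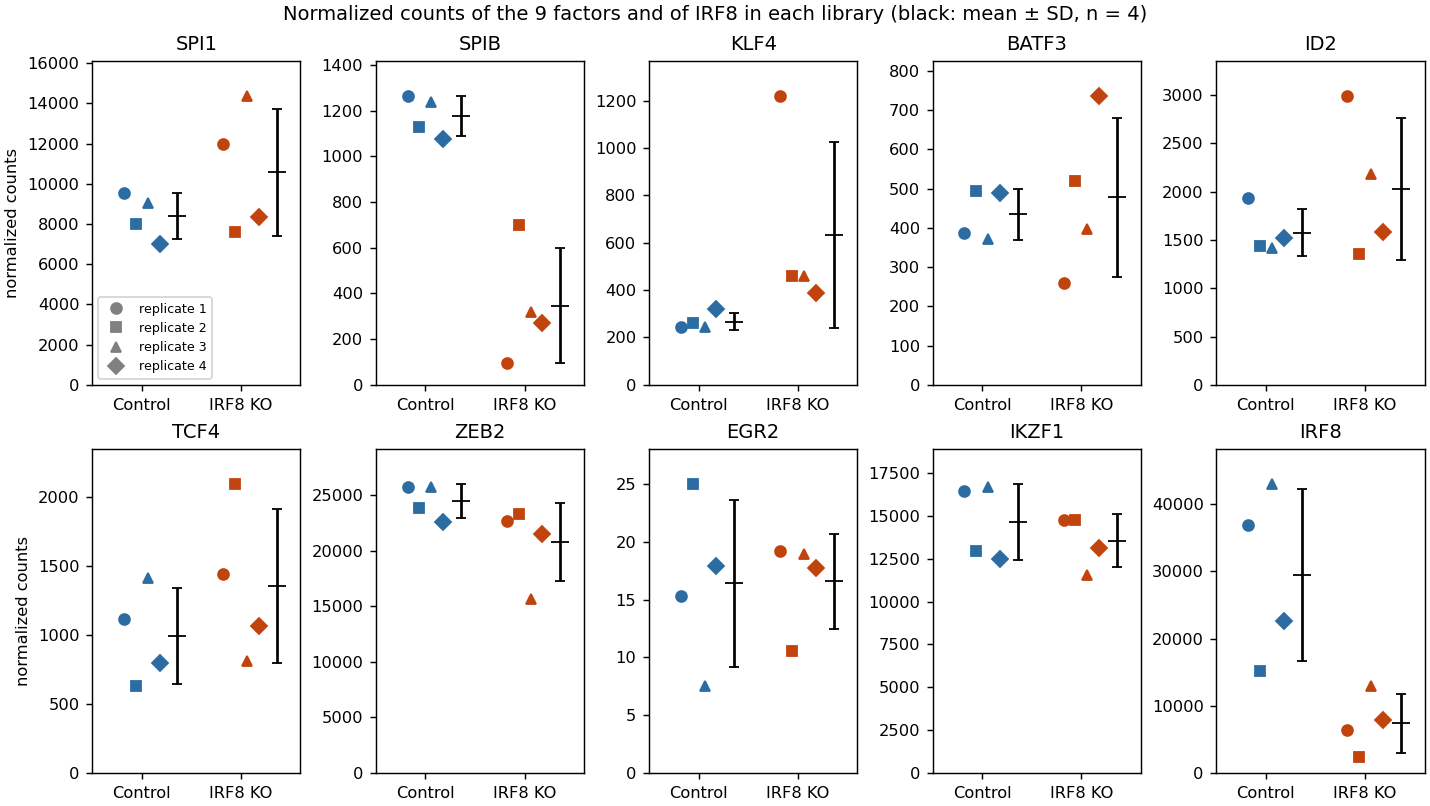
Normalized counts (linear axes from 0) of the 9 factors and of IRF8 in the 4 Control (blue) and 4 IRF8 KO (orange) libraries, with one symbol per replicate number and black bars for the mean and SD (n = 4). SPIB, KLF4 and IRF8 are the genes whose groups do not overlap, and IRF8 KO 1 holds both the lowest SPIB value (97) and the highest KLF4 value (1220.2).

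The ETS factors were examined first, since they share composite sites with IRF8. SPI1, which encodes PU.1, had 9546, 7991, 9039 and 7021 normalized counts in Control 1 to 4. In IRF8 KO 1 to 4 it had 11960, 7621, 14377 and 8326. In both groups replicates 1 and 3 were the higher ones, and the groups overlapped, with IRF8 KO 2 below all but one of the Control libraries. The mean was 8399 ± 1124 (SD, n = 4) in Control and 10571 ± 3171 (SD, n = 4) in IRF8 KO. The log2 fold change of 0.29 had a 95% interval from -0.19 to 0.78, which includes no change and a rise of up to 1.72-fold (limma adjusted p = 0.40).

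SPIB encodes the closest relative of PU.1 among the factors examined. It had 1263, 1130.8, 1238 and 1075 normalized counts in Control 1 to 4, and 97, 698, 321 and 272 in IRF8 KO 1 to 4. The 4 Control values were close to each other, while the IRF8 KO values were spread widely and all lay below the lowest Control value. The mean fell from 1177 ± 88.7 (SD, n = 4) to 347 ± 253 (SD, n = 4). The log2 fold change was -2.08 with a standard error of 0.50 and a 95% interval from -3.21 to -0.95 (limma adjusted p = 0.021, exact permutation p = 0.029). SPIB also passed the limits used by the study. edgeR and DESeq2 on the recovered reads called it as well, with adjusted p-values of 0.038 and 0.0014. The call was lost narrowly when Control 1 (adjusted p = 0.052) or IRF8 KO 4 (adjusted p = 0.053) was left out, with log2 fold changes between -2.52 and -1.58 over the 8 libraries left out in turn.

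The order of the IRF8 KO libraries by SPIB mRNA was not that by the remaining mRNA of the edited IRF8 gene, and a relation of these values was not tested. IRF8 KO 2 had the least IRF8 mRNA and the most SPIB mRNA of the 4 IRF8 KO libraries. Within pairs of the same replicate number, SPIB was lower by a log2 difference of -3.69 in replicate 1, -0.70 in replicate 2, -1.94 in replicate 3 and -1.98 in replicate 4. All 4 pairs thus had the same sign, which held for 47.8% of all tested genes.

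The genes whose pattern over the 8 libraries was most like SPIB were PTGIR and TANC1, by the root mean square difference of centred log2 values among 10985 genes that averaged 100 normalized counts or more. PTGIR, which encodes the prostacyclin receptor, differed from SPIB by 0.25 and had a log2 fold change of -1.94 (limma adjusted p = 0.011). PTGIR had 718, 745, 695 and 634 normalized counts in Control 1 to 4. In IRF8 KO 1 to 4 it had 88.4, 383, 228 and 139. PTGIR and TANC1 were picked for their likeness to SPIB, so their fold changes and order of libraries follow from this choice. TANC1, a scaffold protein gene, differed from SPIB by 0.29 and had a log2 fold change of -1.88 (limma adjusted p = 0.033). The call of TANC1 was lost when any library other than IRF8 KO 1 and IRF8 KO 2 was left out (adjusted p up to 0.082) and with edgeR (adjusted p = 0.063). IRF8 itself was less alike, with a difference of 1.20.

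KLF4, a zinc finger factor that promotes monocyte differentiation, was the factor with the largest positive log2 fold change of the 9. It had 243, 259.6, 244 and 319 normalized counts in Control 1 to 4, and 1220.2, 459, 459 and 389 in IRF8 KO 1 to 4. Every IRF8 KO library lay above every Control library, and IRF8 KO 1 stood far above the other 3. The mean was 266 ± 36 (SD, n = 4) in Control and 632 ± 394 (SD, n = 4) in IRF8 KO, and 435 ± 40.6 in IRF8 KO without IRF8 KO 1, which is 1.63 times the Control mean. The log2 fold change was 1.08 with a standard error of 0.34 and a 95% interval from 0.30 to 1.87 (limma adjusted p = 0.061, exact permutation p = 0.029).

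The call of KLF4 depended on the model. With the replicate number as a block, KLF4 passed the threshold (limma adjusted p = 0.041), as it did with edgeR (0.0495), with DESeq2 (0.0062) and with quantile normalization (0.038). Without IRF8 KO 1, the log2 fold change dropped to 0.71 and the adjusted p was 0.036. In the fits with any other library left out KLF4 was not called, with adjusted p-values from 0.058 to 0.12. In the fit with the block, 28.7% of all tested genes were called and 14.2% as higher, against which this call is read.

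The differences within same-numbered pairs were all positive for KLF4, with log2 differences of 2.32, 0.82, 0.91 and 0.28 in replicates 1 to 4. A shared sign in all 4 pairs held for 47.8% of all tested genes. The plot of differences by pair shows SPIB and KLF4 on opposite sides of 0. The farthest point of each came from replicate 1.

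**Figure D2:**
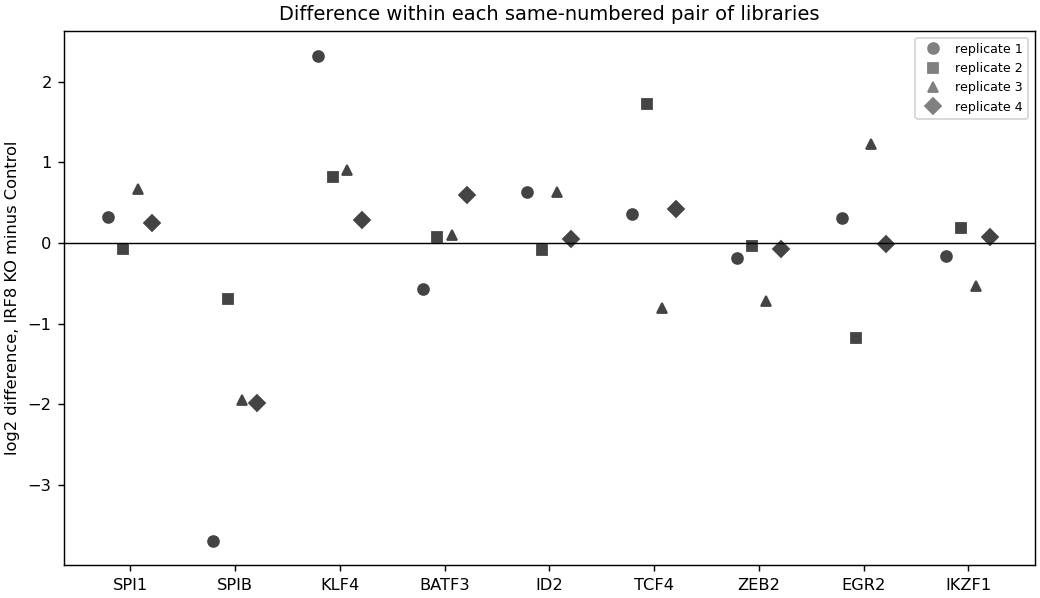
Log2 difference of IRF8 KO minus Control within each same-numbered pair of libraries (vertical axis, log2 units) for the 9 factors, with one symbol per replicate number. SPIB (from -3.69 to -0.70), KLF4 (from 0.28 to 2.32) and ZEB2 (from -0.72 to -0.03) have the same sign in all 4 pairs, and the other 6 factors have pairs on both sides of 0. Of all tested genes, 47.8% have the same sign in all 4 pairs.

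The factors of cDC1 were next. BATF3, an AP-1 factor that is needed for cDC1, had 386, 494, 372 and 489 normalized counts in Control 1 to 4. In IRF8 KO 1 to 4 it had 260.0, 520.0, 397 and 737. The IRF8 KO libraries lay on both sides of the Control libraries, and in both groups replicates 2 and 4 were the higher ones. Its log2 fold change was 0.05 (95% interval from -0.64 to 0.73, limma adjusted p = 0.94), and the sign turned when any of 4 single libraries was left out.

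ID2 had 1933, 1439.6, 1411 and 1521 normalized counts in Control 1 to 4, and 2991, 1353, 2183 and 1577 in IRF8 KO 1 to 4. IRF8 KO 1 and 3 lay above all Control libraries, while IRF8 KO 2 lay below them. The log2 fold change was 0.31 with a 95% interval from -0.25 to 0.86, so that a rise of up to 1.82-fold was not resolved from no change (limma adjusted p = 0.45).

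TCF4, which encodes the E protein E2-2 that ID2 can bind, varied widely within both groups, with a coefficient of variation of 35.2% in Control and 41.3% in IRF8 KO. It had 1118, 632, 1415 and 794 normalized counts in Control 1 to 4, and 1439.7, 2095, 811 and 1062 in IRF8 KO 1 to 4. The order of the libraries was not shared between the groups, with replicate 2 lowest in Control and highest in IRF8 KO. The log2 fold change was 0.43 (95% interval from -0.34 to 1.19, limma adjusted p = 0.44), and within pairs it ranged from -0.80 to 1.73. The gene lies on chromosome 18, and the 170 genes tested there had, at the median, a log2 fold change of -0.19. After subtraction of the chromosome's median from each library, TCF4 was higher by a log2 difference of 0.67 (exact permutation p = 0.086).

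For the chromosomes of the other 8 factors, the median log2 fold change lay between -0.08 and 0.02. Relative to its chromosome, the log2 difference was -1.88 for SPIB (exact permutation p = 0.029) and 1.01 for KLF4 (exact permutation p = 0.029).

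ZEB2 and IKZF1 had high counts with little spread. ZEB2 had 25694, 23814, 25737 and 22559 normalized counts in Control 1 to 4, and 22642, 23269, 15641 and 21468 in IRF8 KO 1 to 4. IRF8 KO 3 was the lowest by far, IRF8 KO 4 lay just below the Control range and the other 2 lay within it. The mean was 24451 ± 1547 (SD, n = 4) in Control and 20755 ± 3490.2 (SD, n = 4) in IRF8 KO. Its log2 fold change of -0.25 had a 95% interval from -0.58 to 0.07 (limma adjusted p = 0.27). The sign was the same in all 4 pairs, as for 47.8% of all tested genes, with log2 differences from -0.72 to -0.03.

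IKZF1 had 16454, 12972, 16674 and 12469.8 normalized counts in Control 1 to 4 and 14768, 14765.5, 11555 and 13129 in IRF8 KO 1 to 4. The groups overlapped over most of their range, and Control 1 and 3 were the highest of all libraries. The log2 fold change was -0.11, with a 95% interval from -0.43 to 0.22 (limma adjusted p = 0.68), which leaves out a 2-fold change in either direction. The interval of ZEB2 likewise leaves out a 2-fold change.

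EGR2, a zinc finger factor of macrophage differentiation, was the one factor near the limit of the filter. Its normalized counts were 15.3, 25.0, 7.52 and 17.9 in Control 1 to 4 and 19.2, 10.5, 19.0 and 17.7 in IRF8 KO 1 to 4, which rest on 7 to 29 reads per library. The lowest and the highest value were both from Control libraries. A difference was not detectable at this depth, since the 95% interval of the log2 fold change of 0.09 ran from -0.85 to 1.03 (limma adjusted p = 0.92).

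**Figure D3:**
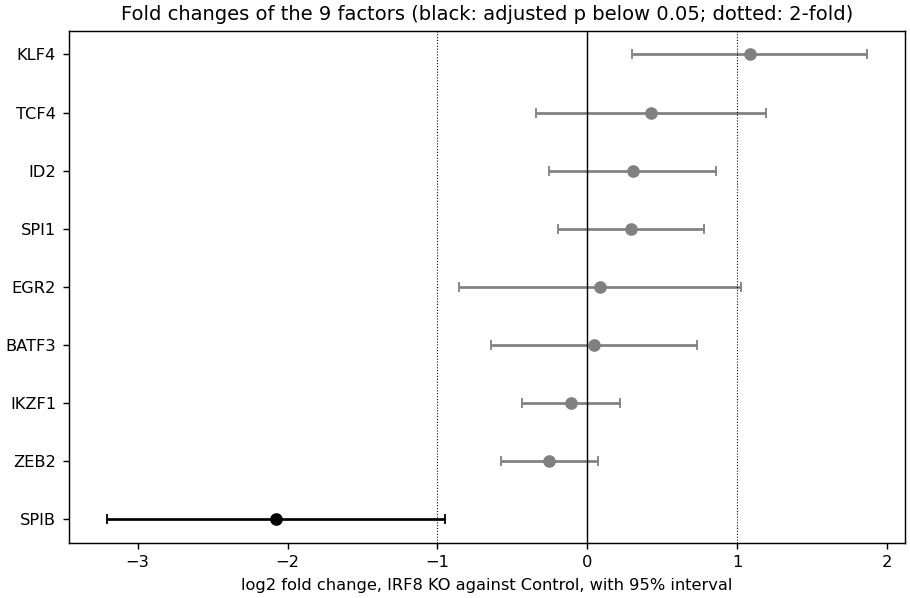
Log2 fold change of IRF8 KO against Control for the 9 factors (points, limma) with the 95% interval (bars), ordered by size. SPIB (black) is the factor with an adjusted p below 0.05, the interval of KLF4 runs from 0.30 to 1.87, and the intervals of the other 7 factors include 0.

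Read as a group, 1 of 9 factors was called, as lower, against 18.2% of all tested genes called in either direction. By limma 0 factors were called higher, where 1 factor had an unadjusted p below 0.05 and where edgeR and DESeq2 each called 1. The groups did not overlap for 2 of 9 factors, and for 25.3% of all tested genes. These shares are near the background. The median log2 fold change of the 9 factors was 0.09, with 6 above and 3 below 0, and that of all tested genes was -0.00094. In 7 of 9 factors the log2 values were more spread in the IRF8 KO than in the Control libraries, which was the case for 52.0% of all tested genes.

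Relatives and partners of the 9 factors were described with the same comparison, in lists that were written with earlier results of these libraries known. Of 59 tested related factors, 9 rose and 7 fell (27.1% called, against 18.2% of all tested genes), with a median log2 fold change of -0.06. The number lower depended on the setting. Counted together with the PU.1 target genes described further on, 7 genes were lower, against 3 without Control 3, 4 without Control 2, IRF8 KO 1, IRF8 KO 3 or IRF8 KO 4, 11 with DESeq2 and 16 with the replicate number as a block. Among 10 tested ETS factors, ELF2 (log2 fold change 0.62), FLI1 (0.65) and ERG (3.53) rose and ETS2 (-0.82) fell. FLI1, a factor of blood stem and megakaryocytic cells, had 4061 to 4944 normalized counts in Control and 6337 to 7627 in IRF8 KO. ERG, which is related to FLI1, was low in all libraries, with 4.30 to 5.65 normalized counts in Control and 39.2 to 111 in IRF8 KO. SPIC, the third member of the PU.1 subfamily, was at 0 in all libraries.

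Among 11 tested KLF factors, KLF5 and KLF1 rose and the other 9 did not pass the test. KLF5 had 45.9 to 90.6 normalized counts in Control and 276 to 429 in IRF8 KO (log2 fold change 2.34, limma adjusted p = 8.2e-04). KLF1, an erythroid factor, was low throughout, with at most 10.4 normalized counts in Control and 44.7 in IRF8 KO.

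The AP-1 and MAF partners showed JUN higher (log2 fold change 1.07) and FOSL1 lower (-0.70), and the other 10 of 12 tested did not pass. JUN had 251 to 429 normalized counts in Control and 437 to 1101 in IRF8 KO. MAF had at most 0.863 normalized counts in any library.

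Of 4 tested ID and E protein genes, TCF3 fell (log2 fold change -0.43). It encodes the E proteins E12 and E47 and had 20350.5 to 24391 normalized counts in Control against 15609.9 to 18746 in IRF8 KO. The co-repressors of EGR factors moved in opposite directions, as NAB1 rose (0.45) and NAB2 fell (-0.88). In the Ikaros family, IKZF2 (-2.53) and IKZF4 (-0.57) fell among 3 tested genes. IKZF2, which encodes Helios, had 149.6 to 529 normalized counts in Control and 12.8 to 139.7 in IRF8 KO. ZEB1, the relative of ZEB2, had a mean of 14.3 normalized counts in Control and 9.84 in IRF8 KO and was not called.

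Among 14 other factors of monocytes and dendritic cells, PPARG (log2 fold change 3.71) and BCL11A (0.76) rose and ZBTB46 (-1.92) fell. PPARG, a nuclear receptor of macrophages, had 8.59 to 143 normalized counts in Control and 397 to 683 in IRF8 KO. ZBTB46, a factor typical of conventional dendritic cells, had 438 to 885 normalized counts in Control and 101.2 to 218 in IRF8 KO. BCL11A, a factor needed for plasmacytoid dendritic cells and B cells, had 2591 to 3484 normalized counts in Control and 4065 to 6154 in IRF8 KO. Calls of ELF2, FLI1, ERG, KLF5, KLF1, FOSL1, NAB2, ZBTB46 and BCL11A remained with each of the 8 libraries left out in turn. For 7 other genes the call was lost in several of these fits, with the highest adjusted p at 0.094 for ETS2, 0.10 for JUN, 0.078 for TCF3, 0.077 for NAB1, 0.089 for IKZF2, 0.076 for IKZF4 and 0.058 for PPARG. ETS2 passed only without IRF8 KO 2, JUN only without Control 2 or IRF8 KO 2, and TCF3 only without Control 4, IRF8 KO 2 or IRF8 KO 3. NAB1 passed only without IRF8 KO 2 or IRF8 KO 3, IKZF2 only without Control 1 or IRF8 KO 4, and IKZF4 only without Control 4 or IRF8 KO 2. The call of PPARG was lost without Control 1, IRF8 KO 1, IRF8 KO 3 or IRF8 KO 4. edgeR did not call ETS2 (adjusted p = 0.059), IKZF2 (0.057) and PPARG (0.051). With the replicate number as a block, 3 ETS factors were called higher and 3 lower, 3 KLF factors were called higher and 2 lower, 1 AP-1 or MAF partner higher and 4 lower, 1 ID or E protein gene higher and 1 lower, and 3 of the other monocyte and dendritic cell factors higher and 2 lower.

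The known target genes of PU.1 were examined beside SPI1, whose own mRNA was not called. Over all tested genes, 8.65% were called higher. Of 19 tested target genes, 8 rose and 11 did not pass the test, with a median log2 fold change of 0.89. limma called 0 of them lower, where 1 had an unadjusted p below 0.05 with a negative sign, edgeR called 0 lower and DESeq2 called 1. With the replicate number as a block, 9 target genes were called higher and 1 lower. CYBB, the catalytic subunit of the phagocyte NADPH oxidase, had 1198 to 2957 normalized counts in Control and 13822.5 to 19828 in IRF8 KO (log2 fold change 3.03). ITGAM, which encodes the integrin CD11b, had 62.1 to 112 in Control and 406 to 1152 in IRF8 KO (3.03). CD68, a lysosomal glycoprotein of macrophages, had 2033 to 2549 in Control and 6579 to 10649 in IRF8 KO (1.83). CSF1R, a target of PU.1 in monocytes, had 4778 to 7184 in Control and 3239.6 to 6259 in IRF8 KO and was not called (limma adjusted p = 0.46). With each library left out in turn, 7 or 8 target genes were called higher and 0 or 1 lower.

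Markers of cell types are given beside the PU.1 target genes. They moved in different directions by list, and their part in the results was not tested. The counts by marker list are read against the 8.65% of all tested genes called higher and the 9.56% called lower. Of 22 target genes in the list, 5 are also in a marker list, and 1 of these 5, ITGAM, was called. Of 8 tested neutrophil lineage markers, 5 rose, with a median log2 fold change of 2.21. The granule proteins MPO (log2 fold change 4.08), ELANE (3.64) and CTSG (3.30) were among them. The rise was not shared by the whole list, as LTF (-2.05), CXCR2 (-0.19) and CSF3R (0.61) were not called. CAMP, CEACAM8, FCGR3B and MMP8 were too low to be tested, and the mean of CAMP was 13.7 in Control and 4.23 in IRF8 KO. The summed level of this list was between 33127 and 35568 normalized counts in Control and between 138567 and 327657 in IRF8 KO. Of 12 classical monocyte markers, 3 rose and 3 fell, with MNDA (5.18) and CSTA (1.64) higher and CCR2 (-2.64) lower. The monocyte marker CD14 had 1.88 to 12.9 normalized counts in Control and 13.8 to 25.6 in IRF8 KO. The summed monocyte list lay between 15729 and 28863 in Control and between 33694.5 and 285868 in IRF8 KO, where LYZ had 13767 to 248604. In Control LYZ had 1734 to 14757, so that its groups overlapped, and it was not called (limma adjusted p = 0.060). With the block, 7 monocyte markers were called higher and 3 lower. The call of CCR2 was lost without Control 1, Control 3, IRF8 KO 3 or IRF8 KO 4 (adjusted p up to 0.069).

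Markers of dendritic cells are given beside SPIB, TCF4, BATF3 and ID2. All 6 tested cDC2 markers fell, with a median log2 fold change of -3.33. CLEC10A (-6.10), CD1E (-5.94) and CD1C (-4.16), a lectin and CD1 proteins of cDC2, led this list, and its summed level was between 15497 and 17309 normalized counts in Control and between 4057 and 5142 in IRF8 KO. Most of this sum came from SIRPA, with 10762.5 to 13272.9 in Control and 3210.8 to 4198.6 in IRF8 KO. Of 12 tested plasmacytoid markers, 4 fell and 8 did not pass, with a median of -0.67. With the replicate block 6 were called lower, as with DESeq2. Among them, the interleukin 3 receptor chain IL3RA had 3398 to 5069 normalized counts in Control and 837 to 1417 in IRF8 KO (log2 fold change -2.01), and TLR7 (-3.95) and SMPD3 (-1.78) fell as well, with the call of TLR7 lost without Control 2, Control 4, IRF8 KO 1 or IRF8 KO 3 (adjusted p up to 0.066). The summed plasmacytoid list lay between 33385 and 35286 in Control and between 19743 and 23493 in IRF8 KO. Its largest part was LAMP5, with 15993.4 to 17823.9 in Control and 11002.4 to 12883 in IRF8 KO. CLEC4C, the defining marker of these cells, had at most 0.804 normalized counts in any library, and TCL1A was at 0 in all.

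Of 7 tested cDC1 markers, C1orf54 (log2 fold change -2.38) fell and CPNE3 (0.46) rose, and the median was -0.03. The defining cDC1 markers were at or near 0, with XCR1 at 0 in all 8 libraries and CLEC9A at 0 in Control and at 3.20 to 15.7 normalized counts in IRF8 KO. The summed cDC1 list lay between 15664 and 24119.8 in Control and between 13507 and 29436 in IRF8 KO. CPNE3 passed only without IRF8 KO 3 when one library was left out, with the adjusted p at up to 0.12, and did not pass without a filter (0.061), with upper quartile scaling (0.056) or with limma without trend (0.058). With the block 2 cDC1 markers were called higher and 2 lower. In bulk RNA, fewer cells with a transcript and less transcript per cell cannot be told apart.

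**Figure D4:**
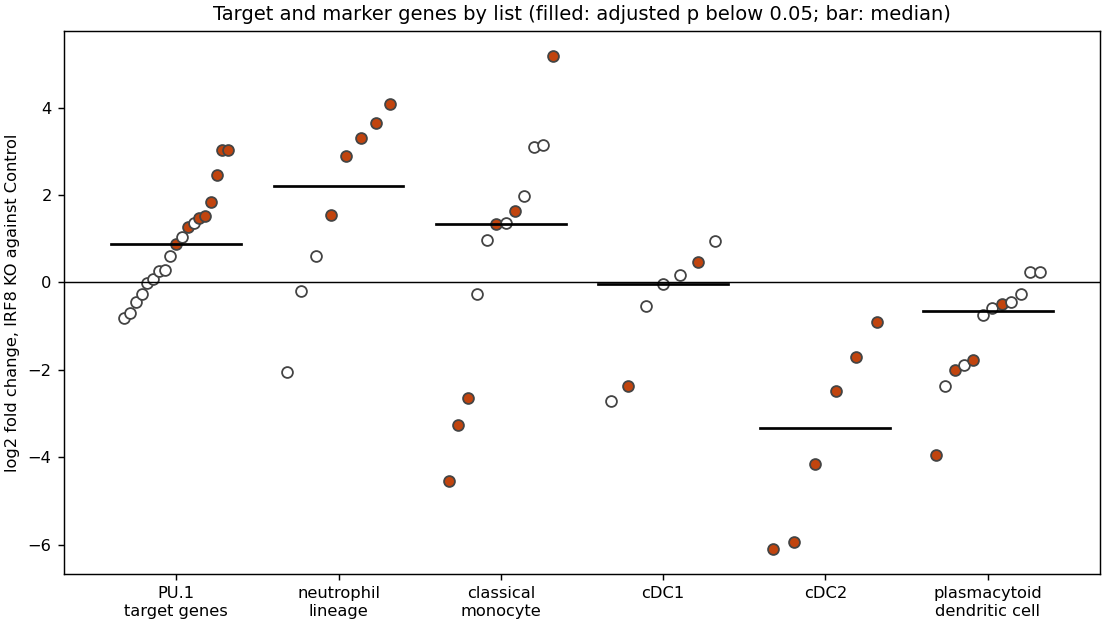
Log2 fold change of IRF8 KO against Control (vertical axis) for each tested gene of 6 lists, with filled points for an adjusted p below 0.05, open points for genes not called and a bar at the median. The cDC2 markers lie below 0 (median -3.33), the plasmacytoid list has a median of -0.67, and the PU.1 target genes (0.89) and the neutrophil list (2.21) have medians above 0.

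The labelled cell type was checked by its markers. Of 9 tested markers of myeloid AML cells, all were expressed, and CD33 had 2520 to 3565 normalized counts in Control and 2101 to 2878 in IRF8 KO. In this list ANPEP, which encodes CD13 (log2 fold change 1.20, limma adjusted p = 0.0075), MPO and ITGAM rose, and MEIS1 (log2 fold change -0.56, limma adjusted p = 0.029) fell. With single libraries left out, MEIS1 passed only without IRF8 KO 2 (adjusted p up to 0.079 otherwise). The B cell marker MS4A1, the erythroid gene HBB and the platelet genes PF4 and PPBP were at 0 in all libraries, and the T cell genes CD3D and CD3E had below 1 normalized count. Other members of these lists were expressed, and some moved. EBF1 of the B cell list had 2069 to 5592 normalized counts in Control, and ITGA2B of the erythroid and megakaryocyte list had 5624 to 14575. In the T and NK cell list, NKG7 had 2536 to 3085 and NCAM1 had 5207 to 18500 in Control. The B cell adaptor BLNK (log2 fold change -5.42) and IGLL1 (-2.40, not called by edgeR with an adjusted p of 0.061) fell. CD4, which monocytes also express, rose (2.46). NCAM1 was called lower (-2.24), although its groups overlapped. edgeR called 0 genes of the T and NK cell list lower, and with single libraries left out the number lower was 0 or 1.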

How the data were processed

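RNA of MV4-11 cells, 4 Control and 4 IRF8 KO libraries, was sequenced by the authors after poly(A) selection with a stranded kit. The study's methods name RNA-Star with GENCODE for alignment, featureCounts for counting and DESeq2 for normalization. The submitters' processing notes list hg19 and hg38 without saying which served the RNA, and whether counting used strand is not stated. The deposited values are a signal per gene and library, made by the authors as read counts over a DESeq2 size factor. One read's worth was found from the low values, and 100% of values were then whole reads within 0.01. The deposited table of the authors' own comparison (fold changes, p-values) was not used, 0 columns of the normalized table were left out, and the 2 ChIP-Seq samples were not analysed here. Columns headed as wild type were matched to the Control replicates by number.

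The main test was limma 3.58.1 in R 4.3.3 on log2(value + 1), with a filter on a mean of at least 10, a trended robust prior and Benjamini-Hochberg adjustment over 13110 genes. A pseudocount and the filter affect mainly low genes such as EGR2. Exact permutation tests were run with scipy 1.17.1. Alternatives were other pseudocounts (0.5 and 5), filters (none, a mean of at least 100) and scalings, limma without trend, edgeR 4.0.16 and DESeq2 1.42.0 on recovered reads, a replicate block, and each library left out. edgeR with the block and differences within pairs were added after seeing the data. The fits were tested on simulated data.

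The replicate numbers come from the labels. Across genes, the deviations from the group mean correlated between same-numbered Control and IRF8 KO libraries (0.37, 0.48, 0.45 and 0.50), so the numbers were taken to pair the libraries. Replicates 1 and 3, and 2 and 4, also deviated together (0.40 to 0.47). Control 1 was more like IRF8 KO 3 (0.47) than like IRF8 KO 1 (0.37). The pairing by number, on which the block and the differences within pairs rest, is therefore uncertain. What a number marks is not stated.

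The members and the lists were chosen with earlier results of these data known. Genes named are the 9 factors, IRF8, up to 3 genes per list with the largest absolute log2 fold change among called genes with a mean of at least 100 and groups that do not overlap, the 2 genes nearest to a called factor, and markers that show whether the cell type holds. ERG, KLF1, SPIC, MAF, ZEB1, CSF1R, LYZ and MEIS1 were named after their values were seen. Levels scaled by length were not compared between genes, since exon lengths were not used here. Sums over lists, the parts of genes in them and statements of high or low counts rest on counts not scaled by length. Antisense or other genes that overlap TCF4, ZEB2, BATF3 and IKZF1 in RefSeq have no row in the table.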

Additional observations from a re-analysis of the deposited data

Results flagged for a closer look

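Over 20 groups of 4 libraries (the 9 factors and IRF8 in each group), 2 held a value far from the others by Dixon's criterion, of which chance gives about 1 in 20 groups. KLF4 had 1220.2 normalized counts in IRF8 KO 1, and the nearest other IRF8 KO library had 459, so that the gap was 0.915 of the range of the group. Without this library KLF4 was 1.63 times the Control mean. EGR2 had 10.5 normalized counts in IRF8 KO 2, and the nearest other library had 17.7, a gap of 0.830 of the range that rests on 11 reads.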

How the results depend on the processing

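SPIB was called in all 11 settings that kept every library, and 7 of the 9 factors were not called in any of 19 settings. The replicate block called 3769 genes (1857 higher, 1912 lower) in place of 2387, edgeR with the block 3682 (1769 higher, 1913 lower), edgeR without it 2333 and DESeq2 3402. The block brought the calls among related factors and PU.1 target genes from 24 to 37 and those among the classical monocyte markers to 7 higher and 3 lower, and among the factors it changed the call of KLF4 alone. One factor (1), KLF4, was called higher with quantile normalization (log2 fold change 1.18), edgeR (1.23), DESeq2 (1.25), the block (1.08) and edgeR with the block (1.07). With each library left out, the factors called higher and those called lower were each between 0 and 1, and log2 fold changes ranged from -2.52 to -1.58 for SPIB, from 0.71 to 1.26 for KLF4, from -0.19 to 0.31 for BATF3, from -0.22 to 0.32 for EGR2 and from -2.46 to -1.65 for IRF8. EGR2 changed sign with edgeR (-0.010) and had no value with a mean of at least 100. The other scalings moved the median log2 fold change of all genes by less than 0.1. The cause of these changes was not tested. Depth limits EGR2, which rests on 7 to 29 reads.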
